A study of Saccharomyces cerevisiae with 18 samples.

Results

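The 38 nuclear genes described here encode subunits of the mitochondrial respiratory chain and ATP synthase of budding yeast. They were chosen by gene symbol, with earlier results of these data known, and all 38 were found among the 7118 features of the count table. By complex there were 3 NADH dehydrogenases, 4 subunits of Complex II, 9 of Complex III, 1 cytochrome c gene (CYC1), 9 subunits of Complex IV and 12 of ATP synthase. All 38 were also among the 6833 features that entered the tests, and no filter removed a member. The study measured polyA RNA by sequencing in 18 libraries, 3 from each of 6 groups of MAT alpha haploid cells. The aged groups were msn2∆msn4∆ cells (strain CGY69.30, msn2::HphNT1 msn4::NatNT2), msn2∆ cells (CGY61.46, msn2::HphNT1) and wild-type cells (CGY4.51), kept for 24 h in a Ministat Aging Device (MAD), in which a magnet retains the mother cells while medium flows past. The young groups were the same 3 strains in exponential growth. The medium of all groups was synthetic complete without biotin, at pH 4.5, with DAPA, 2% glucose and 2% MMP. MSN2 and MSN4 encode related zinc finger transcription factors that activate stress genes. Each genotype was represented by 1 strain. Whether replicate libraries came from separate cultures is not stated in the labels; the p-values therefore rest on the spread between libraries, some of which may be technical. Aged cells also differed from young cells in carrying biotin and streptavidin-coated magnetic beads and in the way they were grown, which cannot be told apart from age.

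The respiratory chain passes electrons from NADH and succinate through ubiquinone, Complex III and cytochrome c to oxygen at Complex IV, and ATP synthase uses the proton gradient that Complexes III and IV build. Budding yeast has no proton-pumping Complex I; in its place single-subunit NADH dehydrogenases sit on either face of the inner membrane. On glucose the genes of this pathway are known to be held down, and the heme- and carbon-regulated Hap activators raise them when respiration is needed. A few core subunits are encoded in mitochondrial DNA and are not among the 38.

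Library totals were 4078400 to 7136185 counts in aged msn2∆msn4∆ cells and 25768602 to 41649952 in the other 5 groups. The lowest count of any of the 38 genes in any library was 27, for COX26. The deleted genes were checked first. MSN2 had 2.6 to 4.99 CPM (counts scaled to a common library size with TMM factors) in the 12 libraries of both deletion strains, against 31.7 to 45.0 CPM in wild-type libraries. MSN4 had 12 to 14.5 CPM in aged and 18.1 to 23.9 CPM in young msn2∆msn4∆ libraries, against 48.8 to 53.0 CPM in aged and 39.6 to 45.1 CPM in young wild-type libraries. MSN4 reads thus remained in the double deletion, and which part of the gene the cassette replaced is not given in the sources used here. The summed level of 4 alpha-specific genes was 3610 to 6120 CPM and that of 6 a-specific genes 31.7 to 55.4 CPM over all libraries, which fits the labelled mating type. The summed level of 9 daughter-cell genes was 1900 to 2190 CPM in aged msn2∆msn4∆, 1420 to 1570 in aged msn2∆, 1360 to 1530 in aged wild type, 1760 to 2040 in young msn2∆msn4∆, 1590 to 1780 in young msn2∆ and 1190 to 1240 CPM in young wild type. These genes therefore stood higher in both young deletions than in young wild type, in aged msn2∆msn4∆ than in aged msn2∆ and aged wild type, and in aged than in young wild type, and their part in the results was not tested. They overlapped between aged msn2∆ and aged wild type. In bulk samples, fewer cells of a type and less RNA per cell cannot be told apart.

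Upstream sequence is shown for 4 genes because their levels behaved differently below: COX26 and SDH2 rose most in their complexes in aged cells, RIP1 was lower in the deletions at both ages, and CYC1 was lower in aged cells by TMM scaling and called in none of the deletion tests. Each stretch holds the 200 bases that lie 300 to 101 bases before the start codon, 5′ to 3′ on the coding strand, from the R64 reference genome. Capitals mark AGGGG, the core of the stress response element that Msn2 and Msn4 bind, and CCAAT, the core of the Hap complex site, or their reverse complements CCCCT and ATTGG. The stretches are chrIV:690714-690913 on the + strand for COX26, chrXII:54032-54231 on the - strand for SDH2, chrV:106960-107159 on the + strand for RIP1 and chrX:526035-526234 on the + strand for CYC1.
COX26: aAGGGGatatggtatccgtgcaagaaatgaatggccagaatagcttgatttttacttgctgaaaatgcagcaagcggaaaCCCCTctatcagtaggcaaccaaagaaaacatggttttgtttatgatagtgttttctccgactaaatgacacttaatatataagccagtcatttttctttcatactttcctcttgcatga
SDH2: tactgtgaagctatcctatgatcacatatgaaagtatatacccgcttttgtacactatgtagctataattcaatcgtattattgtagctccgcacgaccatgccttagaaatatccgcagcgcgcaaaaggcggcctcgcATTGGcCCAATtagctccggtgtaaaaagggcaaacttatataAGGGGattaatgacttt
RIP1: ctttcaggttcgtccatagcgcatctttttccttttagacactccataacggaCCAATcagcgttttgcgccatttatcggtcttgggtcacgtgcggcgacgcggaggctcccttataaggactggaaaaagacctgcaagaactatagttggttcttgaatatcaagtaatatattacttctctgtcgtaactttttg
CYC1: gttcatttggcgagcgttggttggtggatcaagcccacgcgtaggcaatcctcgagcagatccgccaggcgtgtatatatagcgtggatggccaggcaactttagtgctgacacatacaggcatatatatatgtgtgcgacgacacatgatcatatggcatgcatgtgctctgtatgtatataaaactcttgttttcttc
COX26 held 2 AGGGG matches and no CCAAT, SDH2 held 1 AGGGG and 2 CCAAT matches on opposite strands, RIP1 held 1 CCAAT, and CYC1 held none of these letters in this window. Over the 300 bases before the start codon, searched on both strands, CCAAT was present upstream of 32 of the 38 genes (84.2%), against 41.8% of 6007 nuclear protein-coding genes. AGGGG was present upstream of 16 of the 38 (42.1%), against 22.2% of those 6007. The consensus of the Hap1 activator was present upstream of 1 of the 38 (QCR6, 2.63%), against 0.133% of the 6007. Matches of CCAAT and of AGGGG cannot overlap each other. A match is a description and not a site, and a window without a match says nothing about the factor.

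Levels differed widely between the genes. Per length of coding sequence, COX7 and QCR7 were the highest of the 38 in young wild type, at 2990 and 2920 mean CPM per kb, and NDE2, one of the 2 external NADH dehydrogenases, was the lowest at 1.04 CPM per kb. NDE1, the other external enzyme, had 55.0 CPM per kb and NDI1, the internal one, 33.5 CPM per kb in the same group. In aged wild type the same pair led, with QCR7 at 2160 and COX7 at 2010 CPM per kb, and NDE2 was again lowest at 3.08 CPM per kb. The 3 NADH dehydrogenase genes were 63.8% to 66.1% identical in coding sequence with no identical run above 13 bp, so their reads could be assigned apart. Of the raw counts, the 38 genes together took 0.622% in aged msn2∆msn4∆, 0.84% in aged msn2∆, 0.941% in aged wild type, 0.544% in young msn2∆msn4∆, 0.589% in young msn2∆ and 0.694% in young wild type.

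Summed by complex in CPM, the genes of electron entry stood higher in aged than in young wild type, while the wild-type sums further down the chain overlapped between ages or, for CYC1, stood lower by TMM scaling. Complex II summed to 305 ± 1.93 CPM in aged and 200 ± 12 CPM in young wild type (SD, n = 3 each), with no overlap between the groups. The NADH dehydrogenases summed to 193 ± 11.1 CPM in aged and 146 ± 9.19 CPM in young wild type, also without overlap. ATP synthase summed to 3050 ± 68.3 CPM in aged and 2950 ± 279 CPM in young wild type, and Complexes III and IV to 2440 ± 170 and 2280 ± 180 CPM in aged, against 2690 ± 367 and 2700 ± 466 CPM in young wild type, so these 3 sums overlapped between ages. CYC1 had 49.5 ± 5.83 CPM in aged and 81.6 ± 11.5 CPM in young wild type. In msn2∆msn4∆ the ages did not overlap for Complexes III and IV: Complex III summed to 1250 to 1340 CPM in aged and 1460 to 1760 CPM in young libraries, and Complex IV to 1320 to 1500 CPM in aged and 1550 to 2060 CPM in young libraries. These aged sums were lower by TMM scaling, and with library totals the aged over young ratios were 1.07 and 1.01. In aged cells the means of every complex ran from lowest to highest as msn2∆msn4∆, msn2∆ and wild type, with the CYC1 libraries of the strains overlapping. Complex III had 1310 ± 47.1 CPM in aged msn2∆msn4∆, 1940 ± 211 in aged msn2∆ and 2440 ± 170 CPM in aged wild type, and the libraries of these 3 groups did not overlap. Complex IV sums were 1390 ± 95.6 CPM in aged msn2∆msn4∆, 2030 ± 302 in aged msn2∆ and 2280 ± 180 in aged wild type, and those of aged msn2∆ and wild type overlapped. These sums are a description and carry no test. Scaled by library totals alone, the aged sums of Complexes III and IV and ATP synthase in wild type stood above the young ones, as detailed with the processing.

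**Figure D1:**
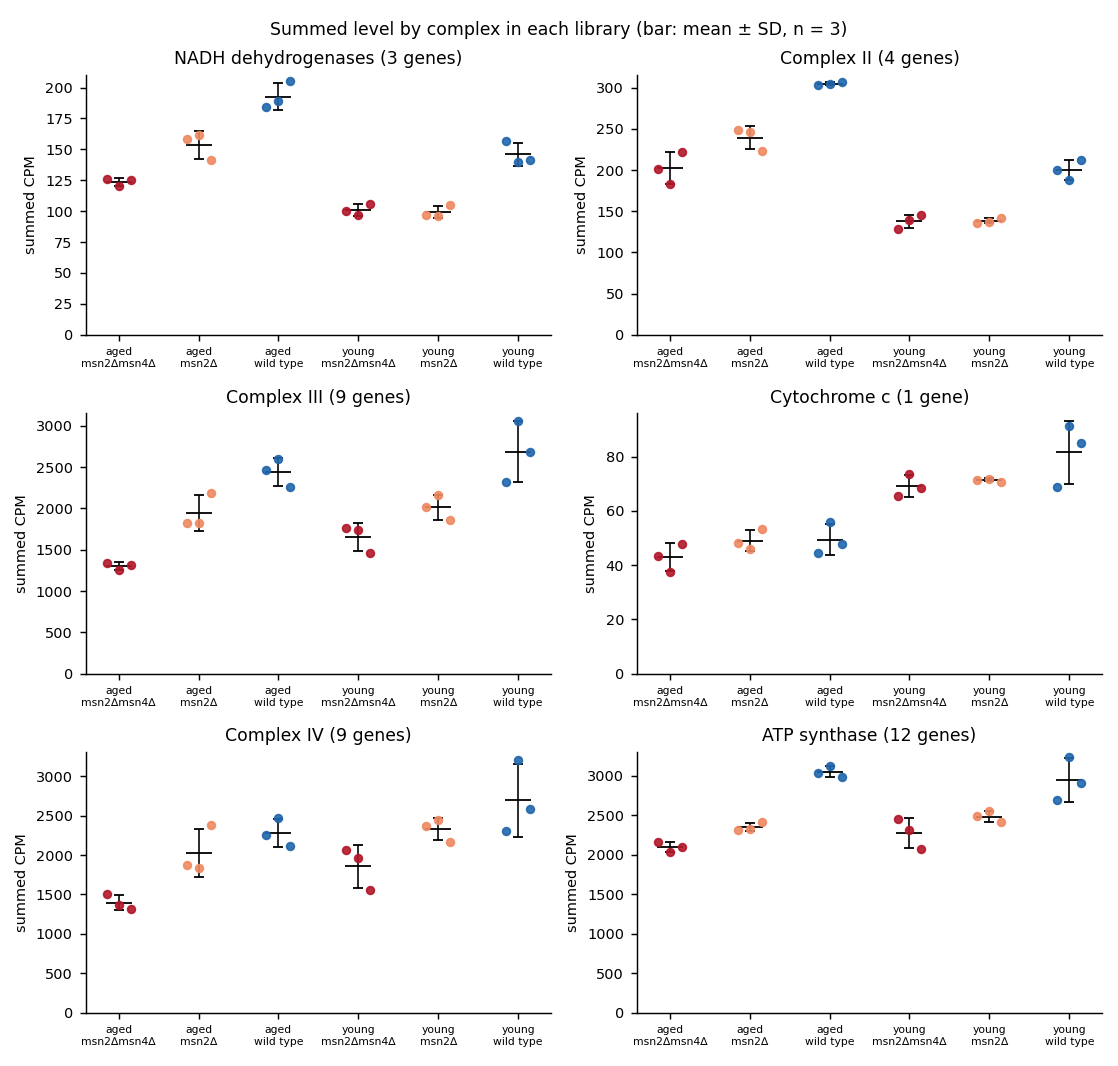
Summed CPM (TMM scaling) of the genes of each complex in each library, by group; the line and bar are the mean and SD of 3 libraries, and each vertical axis starts at 0. Complex II lay at 303 to 307 CPM in aged and 188 to 212 CPM in young wild type, and the aged msn2∆msn4∆ libraries were below aged wild type for every complex except cytochrome c.

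In wild type, 17 of the 38 genes were higher and 9 lower in aged than in young cells at an adjusted p under 0.05, and 12 were not called. Of all 6833 features tested, 33.3% were called higher and 30.6% lower, so the share of the genes called (background 63.9% in either direction) was near that of the whole transcriptome. The median log2 fold change of the 38 was 0.13, against 0.03 over all features. In msn2∆ cells 19 were higher and 10 lower (background 36.6% and 33%), with a median of 0.23 against 0.03. In msn2∆msn4∆ cells 17 were higher and 13 lower (background 31.2% and 29.9%, or 61.2% in either direction), with a median of -0.01 against 0.03. These 3 comparisons share no library; 15 genes were called higher in all 3 and 5 were called lower in all 3. The calls of a fall with age depended on the TMM scale, apart from those of CYC1 and ATP20 in msn2∆msn4∆. Library totals moved the median of all features up by 0.51, 0.59 and 0.43 on the log2 scale in wild type, msn2∆ and msn2∆msn4∆. With them 26, 29 and 23 genes were called higher, and CYC1 and ATP20 in msn2∆msn4∆ were the only calls of a lower level. All 15 genes called higher in the 3 strains were also called higher with library totals.

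**Figure D2:**
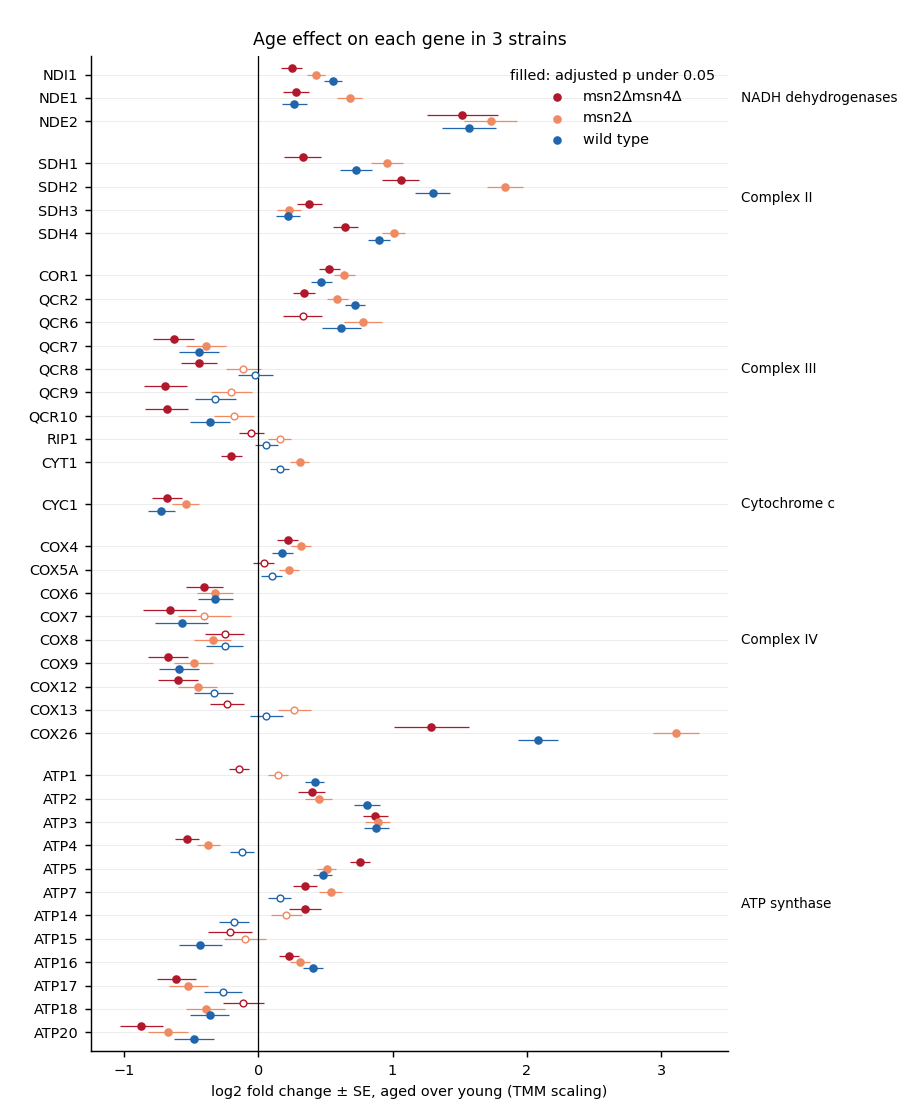
Log2 fold change with its SE, aged over young, for each of the 38 genes in msn2∆msn4∆, msn2∆ and wild type; filled points had an adjusted p under 0.05. NADH dehydrogenase and Complex II genes lay above 0 in each strain, and COX26 was the highest at 1.29, 3.11 and 2.08 apart from NDE2 in msn2∆msn4∆ at 1.52. Filled points below 0 depended on TMM scaling: with library totals no gene was called lower in wild type or msn2∆. In msn2∆msn4∆ CYC1 and ATP20 were still called lower with library totals.

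The genes of electron entry rose in every strain. SDH2, the iron-sulfur subunit of succinate dehydrogenase, had 72.7, 76.6 and 79.4 CPM in aged wild type, against 35.5, 24.7 and 32.4 CPM in young wild type. It had 70.6, 73.4 and 56.1 CPM in aged msn2∆, against 19.5, 15.9 and 20.7 CPM in young msn2∆. In aged msn2∆msn4∆ it had 47.1, 44.3 and 56.0 CPM, against 21.3, 23.2 and 26.6 CPM in young msn2∆msn4∆. Aged and young libraries did not overlap in any strain, and the log2 fold changes were 1.30 ± 0.129 in wild type, 1.84 ± 0.134 in msn2∆ and 1.06 ± 0.14 in msn2∆msn4∆ (SE; adjusted p = 8.35e-08, 6.52e-10 and 3.05e-06). SDH1, the flavoprotein subunit, and SDH4, a membrane anchor, rose by 0.73 and 0.90 in wild type, 0.96 and 1.01 in msn2∆, and 0.33 and 0.65 in msn2∆msn4∆ on the log2 scale. SDH3, the other anchor, rose by 0.22, 0.23 and 0.38 in wild type, msn2∆ and msn2∆msn4∆. The SDH3 call in wild type was lost without young replicate 1 or 2 or any one of the aged replicates (adjusted p up to 0.117), that in msn2∆ without young replicate 1 or 3 or aged replicate 1 (up to 0.0961), and the SDH1 call in msn2∆msn4∆ without young replicate 1 or 2 or aged replicate 2 or 3 (up to 0.272).

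NDI1, the matrix-facing NADH dehydrogenase, had 69.6, 76.9 and 81.4 CPM in aged wild type, against 51.4, 52.9 and 50.6 CPM in young wild type, with no overlap. Its log2 fold change was 0.56 ± 0.0676 (SE; adjusted p = 1.09e-06) in wild type, 0.43 ± 0.0689 in msn2∆ and 0.25 ± 0.0764 in msn2∆msn4∆ (adjusted p = 1.84e-05 and 0.00851). The msn2∆msn4∆ call of NDI1 was lost when all libraries were thinned to the smallest total (adjusted p = 0.117) and in the fit to the 6 msn2∆msn4∆ libraries alone (adjusted p = 0.0504), which also lost SDH1, CYT1, COX4 and ATP16. NDE2 rose by 1.57 ± 0.201, 1.73 ± 0.197 and 1.52 ± 0.263 in wild type, msn2∆ and msn2∆msn4∆ from a low level: it had 4.58 to 5.69 CPM in aged and 1.61 to 1.86 CPM in young wild type. NDE1 rose by 0.68 ± 0.0933 in msn2∆, and by 0.27 and 0.28 in wild type and msn2∆msn4∆. The wild-type call of NDE1 was lost without young replicate 2 or 3 or aged replicate 3 (adjusted p up to 0.0771), and that in msn2∆msn4∆ without young replicate 1 or 2 or aged replicate 1 or 3 (up to 0.0688).

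Complex III was divided by subunit. Its large core proteins COR1 and QCR2 rose in each strain, by 0.47 and 0.72 in wild type, 0.64 and 0.59 in msn2∆, and 0.53 and 0.34 in msn2∆msn4∆ on the log2 scale. QCR6, the acidic hinge protein, rose by 0.62 in wild type and 0.78 in msn2∆, with 0.33 in msn2∆msn4∆ (adjusted p = 0.0562). The small subunits QCR7 and QCR10 were lower in aged wild type by TMM scaling, at -0.44 ± 0.151 and -0.36 ± 0.151, whereas library totals gave 0.08 and 0.15. Both calls were lost without young wild-type replicate 2 or aged wild-type replicate 3, and that of QCR10 also without young replicate 3 or aged replicate 1 (adjusted p up to 0.0839 for QCR7 and 0.255 for QCR10). QCR7 had 819, 921 and 743 CPM in aged wild type, against 922, 1280 and 1170 CPM in young wild type; the highest aged library was only just below the lowest young one. The catalytic subunits RIP1, the Rieske iron-sulfur protein, and CYT1, the c-type heme subunit, had 0.06 ± 0.0844 and 0.16 ± 0.0698 in wild type (adjusted p = 0.539 and 0.051). RIP1 had 145, 145 and 137 CPM in aged and 130, 141 and 139 CPM in young wild type, and those libraries overlapped. CYC1, the main aerobic cytochrome c, had 44.6, 55.9 and 47.8 CPM in aged wild type, against 68.7, 91.1 and 84.9 CPM in young wild type. It was lower by TMM scaling in wild type (-0.72 ± 0.102, adjusted p = 6.96e-06), msn2∆ (-0.54 ± 0.102) and msn2∆msn4∆ (-0.68 ± 0.112), whereas library totals gave -0.21, 0.04 and -0.25, called in msn2∆msn4∆ alone.

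COX26, a small Complex IV subunit found in respiratory supercomplexes, had the largest age effect of the 38 in wild type and msn2∆. It had 50.4, 63.9 and 45.7 CPM in aged wild type, against 13.0, 14 and 10.8 CPM in young wild type. In msn2∆ it had 28.6, 24.8 and 36.3 CPM in aged cells, against 3.17, 3.72 and 3.48 CPM in young cells. In msn2∆msn4∆ it had 3.75, 5.39 and 4.46 CPM in aged cells, against 2.2, 1.85 and 1.41 CPM in young cells. Ages did not overlap in any strain, and the log2 fold changes were 2.08 ± 0.149, 3.11 ± 0.172 and 1.29 ± 0.278 in wild type, msn2∆ and msn2∆msn4∆ (SE; adjusted p = 6.95e-10, 9.11e-12 and 0.00052). Of the other Complex IV genes COX4, the zinc-binding subunit, was the one called higher in all 3 strains, by 0.18 in wild type, 0.32 in msn2∆ and 0.22 in msn2∆msn4∆. Its wild-type call was lost in 10 of the 18 fits that left out 1 library (adjusted p up to 0.213), and that in msn2∆msn4∆ without young or aged msn2∆msn4∆ replicate 3 (up to 0.102). COX6 and COX9 were called lower in all 3 strains by TMM scaling, COX9 by -0.59, -0.48 and -0.67 in wild type, msn2∆ and msn2∆msn4∆, against -0.07, 0.10 and -0.23 with library totals, and COX6 by -0.32, -0.32 and -0.40, against 0.19, 0.27 and 0.04. The COX9 calls held in every fit that left out 1 library; those of COX6 did not, with adjusted p up to 0.149 without young wild-type replicate 2 or 3 or aged wild-type replicate 1 or 3, up to 0.305 without young msn2∆ replicate 2 or any aged msn2∆ replicate, and up to 0.0895 without young or aged msn2∆msn4∆ replicate 2. COX5A, the aerobic isoform of its subunit, had 0.10 ± 0.0771 in wild type (adjusted p = 0.288).

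In ATP synthase 5 of 12 genes rose in aged wild type, ATP1, ATP2, ATP3, ATP5 and ATP16. ATP15, ATP18 and ATP20 were called lower by TMM scaling, whereas library totals gave 0.09, 0.15 and 0.04. ATP2, the catalytic beta subunit, had 391, 356 and 388 CPM in aged wild type, against 235, 204 and 210 CPM in young wild type. ATP3, the rotating central stalk, had 179, 190 and 206 CPM in aged wild type, against 106, 100 and 106 CPM in young wild type. Neither gene overlapped between ages, and the log2 fold changes were 0.81 ± 0.1 for ATP2 and 0.88 ± 0.0907 for ATP3 (adjusted p = 1.51e-06 and 1.4e-07). ATP3 rose by 0.89 in msn2∆ and 0.87 in msn2∆msn4∆, and ATP5, of the peripheral stalk, by 0.48, 0.51 and 0.76 in wild type, msn2∆ and msn2∆msn4∆. ATP16, the delta subunit of the central stalk, rose by 0.41, 0.31 and 0.23 in wild type, msn2∆ and msn2∆msn4∆, the last call being lost without aged msn2∆msn4∆ replicate 3 (adjusted p = 0.0867). ATP1, the alpha subunit, rose in wild type by 0.42 ± 0.0733 (adjusted p = 6e-05), with 0.15 in msn2∆ and -0.14 in msn2∆msn4∆ (adjusted p = 0.0727 and 0.119). ATP20, a membrane subunit of the dimer interface, had 123, 144 and 121 CPM in aged wild type, against 158, 201 and 180 CPM in young wild type. By TMM scaling it was lower by -0.48, -0.67 and -0.87 in wild type, msn2∆ and msn2∆msn4∆, against 0.04, -0.08 and -0.43 with library totals. Its wild-type call was lost without young wild-type replicate 2 (adjusted p = 0.0509).

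The calls of lower level in aged wild type rested on few libraries. Young wild-type replicate 2 was the highest of its group for QCR7 (1280 CPM), QCR10 (236 CPM), COX7 (720 CPM) and ATP15 (314 CPM), and had the lowest TMM factor of all libraries, 0.725. Without it 2 of the 38 genes were called lower in place of 9, without young replicate 3 or aged replicate 1 there were 5, and without aged replicate 3 there were 3. In msn2∆, 6 genes were called lower in place of 10 without young replicate 2, aged replicate 1 or aged replicate 2. The counts of genes called higher ran from 14 to 18 in wild type and 17 to 20 in msn2∆ over all fits that left out 1 library.

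Direction followed the length of the coding sequence, a split chosen after the values were seen. Genes called higher in aged wild type had a median coding length of 936 bp and those called lower 234 bp, with a maximum of 447 bp among those called lower. Of the 17 members of 500 bp or more, 13 were called higher and 0 lower by edgeR, with a median log2 fold change of 0.48. The number of these 17 that were lower was also 0 at an unadjusted p under 0.05 and 0 by DESeq2. Of the 21 shorter members, 4 were called higher and 9 lower, with a median of -0.32. Nuclear protein-coding genes as a whole moved with length too, with a median of 0.08 over 4991 genes of 500 bp or more and -0.32 over 925 shorter ones, or -0.24 over the 839 that encode no ribosomal protein. Of those 4991 longer genes 1874 were called higher and 1321 lower, and of the 925 shorter ones 172 were higher and 468 lower. The shares of the short members were near those of all short genes. The part of length in the results was not tested. The 4 short members called higher were COX26 (201 bp, 2.08), QCR6 (444 bp, 0.62), ATP16 (483 bp, 0.41) and COX4 (468 bp, 0.18).

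**Figure D3:**
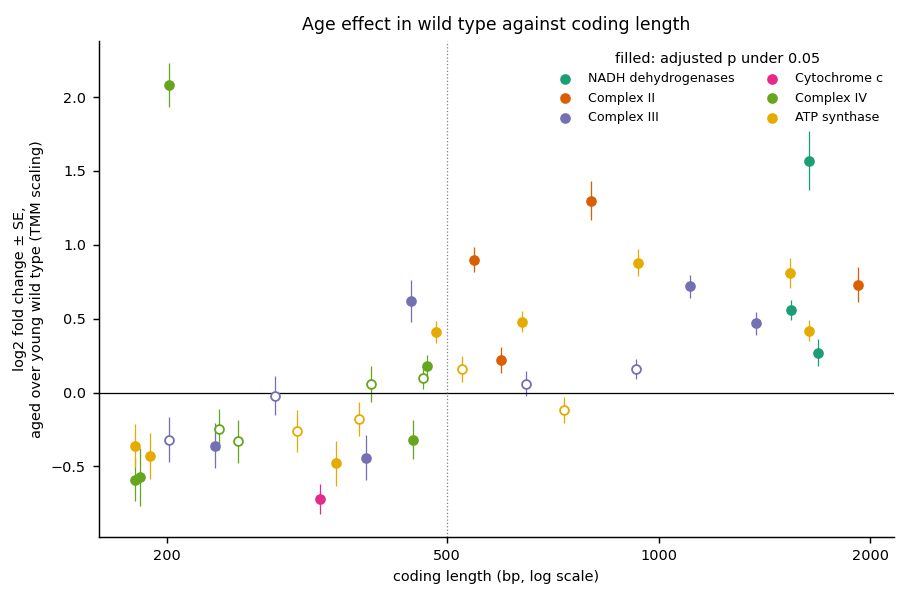
Log2 fold change with its SE, aged over young wild type (TMM scaling), against coding length in bp on a log axis; colours give the complex, filled points had an adjusted p under 0.05, and the dotted line is at 500 bp. All 9 genes called lower were 447 bp or shorter, none of them was called lower with library totals, and COX26 was the highest of the 38, at 201 bp and 2.08.

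In the deletion strains 20 to 34 of the 38 genes were called lower than in wild type of the same age, and none higher, by TMM scaling. In young cells, 25 of the 38 genes were lower in msn2∆ than in wild type (background 15.5% of features lower) and 0 were higher (background 15%, or 30.5% in either direction), with a median log2 fold change of -0.43, against -0.01 over all features. In young msn2∆msn4∆ cells 30 were lower (background 19.9%) and 0 higher (background 17.9%), with a median of -0.45 against -0.01. In both comparisons the count of higher genes was also 0 at an unadjusted p under 0.05 and 0 by DESeq2. In aged cells, 20 were lower in msn2∆ than in wild type (background 16%) and 0 higher (background 13.9%), with a median of -0.30 against 0.02. In aged msn2∆msn4∆ cells 34 were lower (background 19.7%) and 0 higher (background 16.6%), with a median of -0.61 against -0.01. These counts of higher genes were again 0 at an unadjusted p under 0.05 and 0 by DESeq2. The comparisons at one age share their wild-type libraries. Of 925 nuclear protein-coding genes under 500 bp, 370 were lower in young and 291 in aged msn2∆msn4∆, with medians of -0.27 and -0.22. In msn2∆ these medians were -0.11 and -0.03. Of the 21 members that short, 17 and 19 were lower in msn2∆msn4∆, with medians of -0.55 and -0.68. Longer genes had medians of 0.03 and 0.02 there, and the 17 longer members -0.38 and -0.53. The part of length was not tested. With library totals 21, 21, 13 and 30 genes were lower in young msn2∆, young msn2∆msn4∆, aged msn2∆ and aged msn2∆msn4∆, and COX7 was called higher in aged msn2∆. The daughter-cell genes, higher in 3 of these comparisons as given above, moved with them, while in aged msn2∆ 2 of 9 were called higher and their sums overlapped those of aged wild type. In addition the aged msn2∆msn4∆ libraries were the smallest. The parts of both were not tested. With all libraries thinned to the smallest total, which evens depth alone, 21, 25, 18 and 34 genes were lower. These counts are for young msn2∆, young msn2∆msn4∆, aged msn2∆ and aged msn2∆msn4∆ against wild type.

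**Figure D4:**
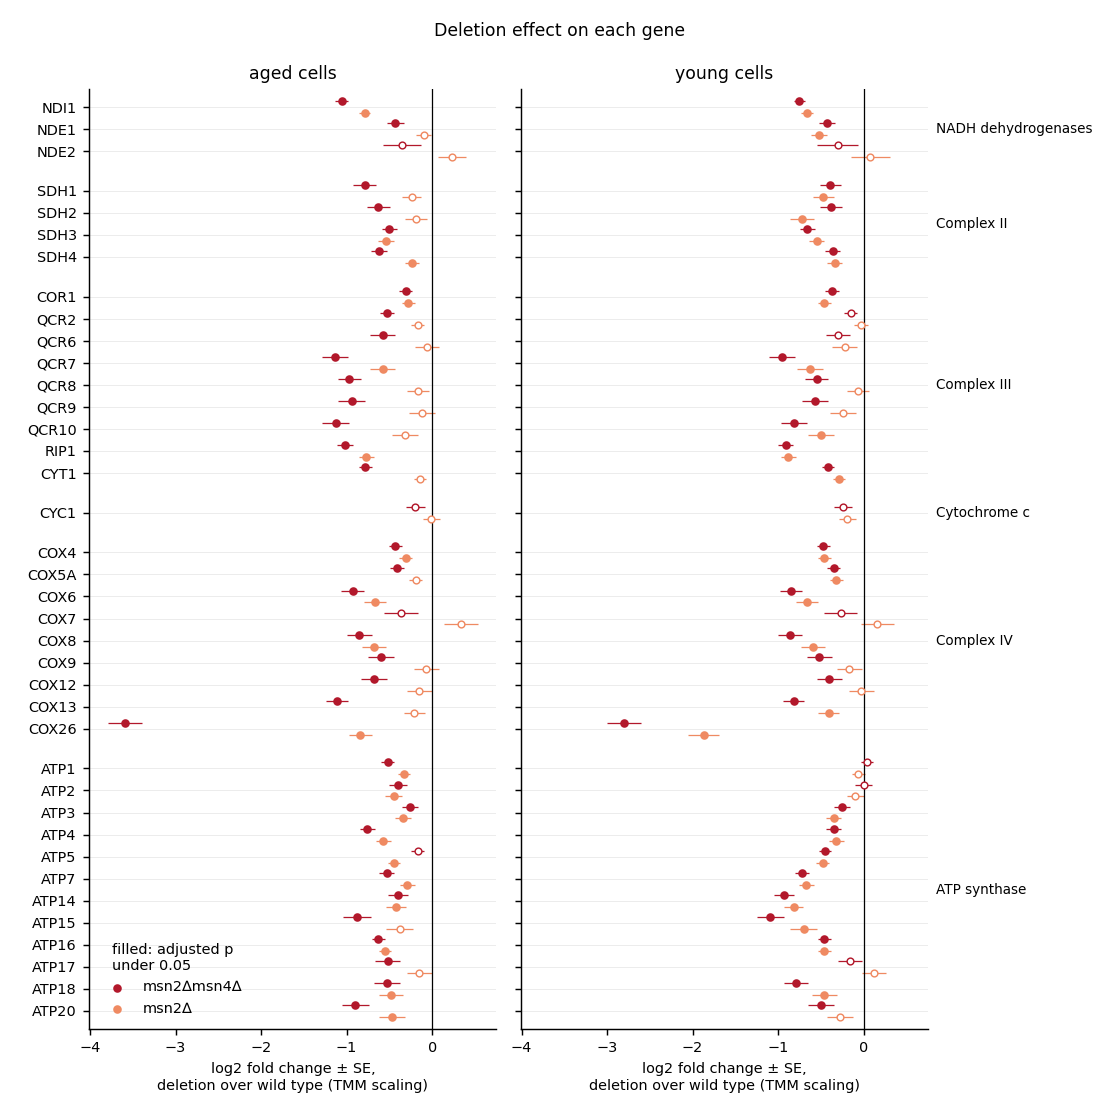
Log2 fold change with its SE for each of the 38 genes, msn2∆msn4∆ and msn2∆ over wild type, in aged cells (left) and young cells (right), with TMM scaling; filled points had an adjusted p under 0.05. COX26 was lowest, at -3.59 in aged and -2.80 in young msn2∆msn4∆, and no filled point lay above 0, though COX7 was called higher in aged msn2∆ with library totals.

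COX26 had the largest deletion effect of the 38 in each comparison. By the library values given above, its log2 fold change was -3.59 ± 0.202 in aged msn2∆msn4∆ and -0.84 ± 0.137 in aged msn2∆ against aged wild type (SE; adjusted p = 1.99e-11 and 0.00013). In young cells it was -2.80 ± 0.196 in msn2∆msn4∆ and -1.87 ± 0.179 in msn2∆ against young wild type (adjusted p = 1.04e-09 and 2.2e-07). No deletion library overlapped wild type of the same age.

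Of the 38 genes, 16 were called lower in all 4 comparisons with wild type by TMM scaling. The share of all features with this pattern was not taken. NDI1 and RIP1 were among the 16, and their calls held in every fit that left out 1 library. The same was true of COX26, SDH3, QCR7, COX4, COX6, COX8, ATP4, ATP7 and ATP16. NDI1 had 37.9, 35.2 and 36.2 CPM in aged msn2∆msn4∆ and 42.6, 43.1 and 46.0 CPM in aged msn2∆, against 69.6, 76.9 and 81.4 CPM in aged wild type. In young cells it had 32.3, 29.6 and 30.4 CPM in msn2∆msn4∆ and 32.1, 33.2 and 32.6 CPM in msn2∆, against 51.4, 52.9 and 50.6 CPM in wild type. The wild-type libraries stood apart at both ages, with log2 fold changes of -1.06 ± 0.0744 and -0.79 ± 0.0671 in aged and -0.75 ± 0.0698 and -0.66 ± 0.0697 in young msn2∆msn4∆ and msn2∆. RIP1 had 72.0, 58.3 and 79.4 CPM in aged msn2∆msn4∆ and 78.1, 86.4 and 85.6 CPM in aged msn2∆, against 145, 145 and 137 CPM in aged wild type. In young cells it had 72.2, 78.6 and 68.2 CPM in msn2∆msn4∆ and 73.3, 76.3 and 73.7 CPM in msn2∆, against 130, 141 and 139 CPM in wild type. Its log2 fold changes were -1.02 ± 0.0895 and -0.77 ± 0.0847 in aged and -0.91 ± 0.0859 and -0.88 ± 0.086 in young msn2∆msn4∆ and msn2∆ (adjusted p = 2.11e-08, 1.15e-06, 1.19e-07 and 2.84e-07).

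Of the remaining Complex III genes all 8 besides RIP1 were lower in aged msn2∆msn4∆ against wild type, QCR7 by -1.14 ± 0.154, QCR10 by -1.13 ± 0.16 and CYT1 by -0.78 ± 0.0752. QCR7 had 385, 339 and 403 CPM in aged msn2∆msn4∆ and 475, 525 and 658 CPM in aged msn2∆, against 819, 921 and 743 CPM in aged wild type, with no overlap between the 3 strains. CYT1 had 52.2, 54.7 and 48.2 CPM in aged msn2∆msn4∆ and 82.3, 77.6 and 80.4 CPM in aged msn2∆, against 86.6, 93.0 and 85.5 CPM in aged wild type; msn2∆ had -0.14 ± 0.0692 (adjusted p = 0.129). All 4 Complex II genes were lower in aged msn2∆msn4∆, SDH1 by -0.79 ± 0.132 and SDH2 by -0.63 ± 0.135. All 4 were also called lower in both young deletions by TMM scaling, but most of those calls depended on the fit. In young msn2∆msn4∆ the calls of SDH1, SDH2 and SDH4 were lost with library totals (-0.22, -0.22 and -0.20), on thinning and in the fit to the compared libraries alone, and SDH3 kept its call in all 3. In young msn2∆ those of SDH1 and SDH4 were lost with library totals (-0.42 and -0.30) and on thinning, and that of SDH4 also without young wild-type replicate 3 (adjusted p = 0.0581). In aged msn2∆ the anchors SDH3 and SDH4 were called, at -0.54 and -0.24, and SDH4 was lost without any one of the aged wild-type replicates or aged msn2∆ replicate 3 (adjusted p up to 0.14). The young msn2∆msn4∆ call of SDH2, at -0.38, was lost without young wild-type replicate 1 or 3 or young msn2∆msn4∆ replicate 1 or 2 (up to 0.144), and that of SDH1, at -0.39, without young wild-type replicate 1 or the same 2 msn2∆msn4∆ libraries (up to 0.0947).

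In Complex IV, 8 of 9 genes were lower in aged msn2∆msn4∆, all but COX7 at -0.36 ± 0.198 (adjusted p = 0.169). After COX26 the largest was COX13, at -1.11 ± 0.126. COX6, whose levels are known to follow carbon source, had 124, 109 and 143 CPM in aged msn2∆msn4∆ and 145, 154 and 151 CPM in aged msn2∆, against 225, 253 and 238 CPM in aged wild type. Its log2 fold changes were -0.93 ± 0.136 and -0.67 ± 0.132 in aged msn2∆msn4∆ and msn2∆, and -0.85 ± 0.133 and -0.66 ± 0.132 in young msn2∆msn4∆ and msn2∆. COX5A was lower by -0.41 in aged msn2∆msn4∆ and by -0.35 and -0.32 in young msn2∆msn4∆ and msn2∆, with -0.19 in aged msn2∆ (adjusted p = 0.0719). CYC1 was called in none of the 4 comparisons, with -0.20, -0.01, -0.24 and -0.19 in aged msn2∆msn4∆, aged msn2∆, young msn2∆msn4∆ and young msn2∆ (adjusted p = 0.182, 0.936, 0.075 and 0.162).

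In ATP synthase, 11 of 12 genes were lower in aged msn2∆msn4∆, 10 in aged msn2∆, 9 in young msn2∆msn4∆ and 8 in young msn2∆ against wild type of the same age. With library totals these counts were 9, 6, 7 and 7, and the calls lost in aged msn2∆ were ATP1, ATP2, ATP3 and ATP7. ATP1 and ATP2 were called in both aged deletions and in neither young one by TMM scaling. In the interaction tests against wild type, ATP1 was called in msn2∆msn4∆ and not in msn2∆, and ATP2 in neither deletion. With library totals ATP1 had -0.20 in aged msn2∆ (adjusted p = 0.108), and ATP2 had -0.32 in aged msn2∆ and -0.31 in aged msn2∆msn4∆ (adjusted p = 0.0785 and 0.0819). ATP1 had 199, 223 and 199 CPM in aged msn2∆msn4∆ and 236, 253 and 218 CPM in aged msn2∆, against 293, 295 and 303 CPM in aged wild type, a log2 fold change of -0.52 ± 0.0744 and -0.33 ± 0.073. In young cells it had 230, 222 and 230 CPM in msn2∆msn4∆ and 214, 208 and 214 CPM in msn2∆, against 215, 233 and 216 CPM in wild type, a log2 fold change of 0.04 ± 0.0733 and -0.06 ± 0.0734 (adjusted p = 0.732 and 0.544). The small subunits ATP14 and ATP15 were among the lowest in young cells, at -0.93 ± 0.116 and -1.09 ± 0.159 in msn2∆msn4∆ and -0.82 ± 0.116 and -0.70 ± 0.158 in msn2∆. ATP5 was the gene not called in aged msn2∆msn4∆, at -0.17 ± 0.0739 (adjusted p = 0.085), while aged msn2∆ had -0.45 ± 0.0714.

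**Figure D5:**
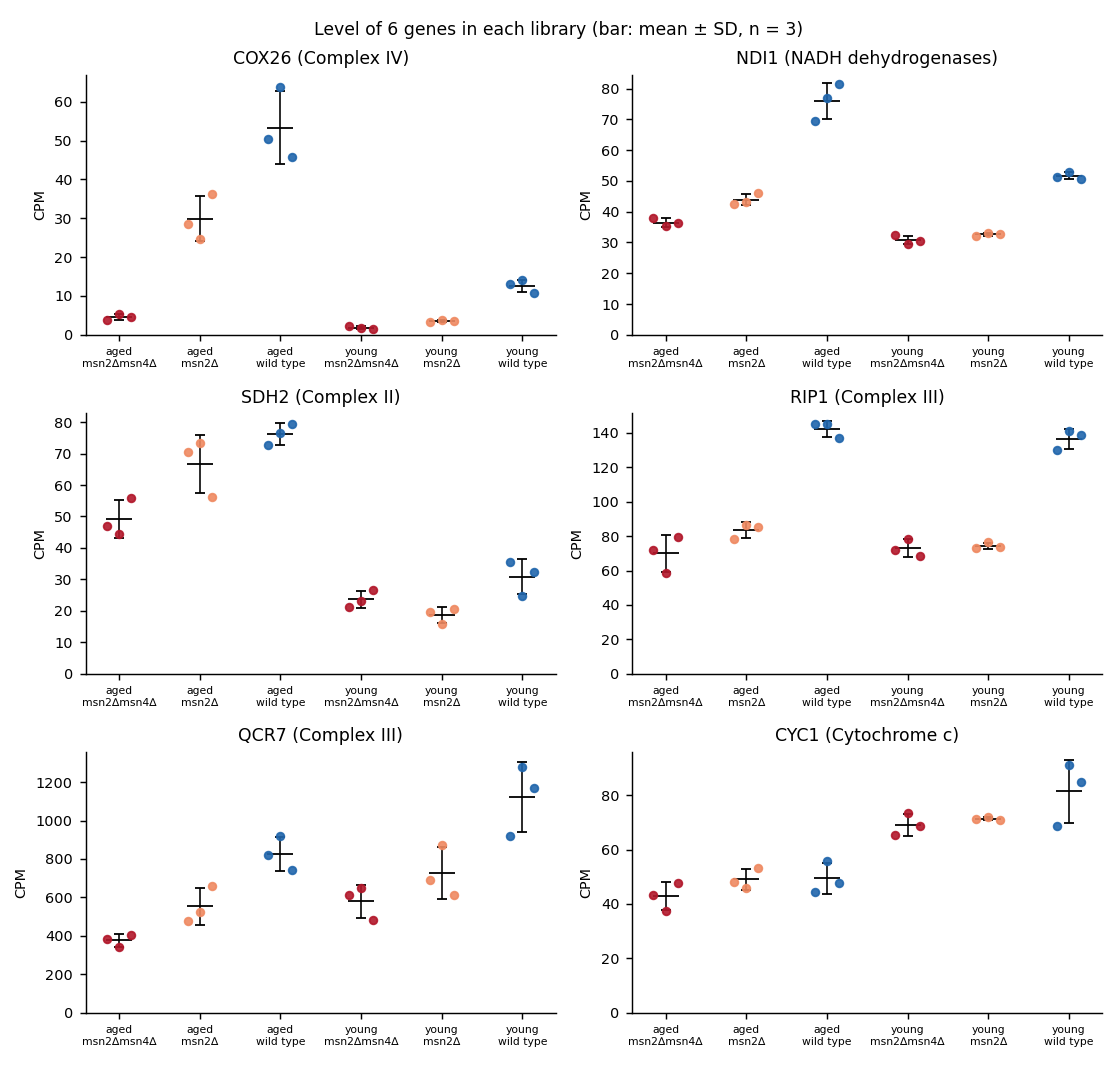
CPM (TMM scaling) of 6 genes in each library, by group; the line and bar are the mean and SD of 3 libraries, and each vertical axis starts at 0. COX26 had 3.75 to 5.39 CPM in aged msn2∆msn4∆, 24.8 to 36.3 in aged msn2∆ and 45.7 to 63.9 CPM in aged wild type, and wild-type NDI1 and RIP1 stood above both deletions at both ages. The lower QCR7 level of aged wild type is relative to TMM scaling. With library totals the aged over young ratio of CYC1 in wild type was 0.866, and CYC1 was not called.

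The deletion strains were also compared with each other. In young cells, 0 of the 38 genes were called between msn2∆msn4∆ and msn2∆ (background 0.454% in either direction), with 1 higher and 10 lower at an unadjusted p under 0.05 and 2 lower by DESeq2 (COX26 and QCR8). COX26 had -0.94 ± 0.226 in that comparison (adjusted p = 0.0829), its libraries by the values given above did not overlap, and 1 gene was called when aged wild-type replicate 2 or aged msn2∆ replicate 3 was left out. In aged cells 20 genes were lower (background 13.5%) and 1 was higher (background 11.3%) in msn2∆msn4∆ than in msn2∆, with a median log2 fold change of -0.34 against -0.02 over all features. Marker genes moved with this comparison: 7 of 9 daughter-cell genes were called higher, with sums of 1900 to 2190 CPM in aged msn2∆msn4∆ and 1420 to 1570 CPM in aged msn2∆, and 3 of 6 a-specific genes were called higher. Their part in the result was not tested. COX26 was lower by -2.75 ± 0.206 (adjusted p = 6.36e-09), COX13 by -0.90 ± 0.125, QCR9 by -0.82 ± 0.157, QCR8 by -0.81 ± 0.132 and CYT1 by -0.64 ± 0.0751. Of Complex III 7 of 9 genes were lower, and of ATP synthase 2 of 12. The gene that was higher was ATP5, with 107, 111 and 107 CPM in aged msn2∆msn4∆, against 90.3, 95.3 and 81.5 CPM in aged msn2∆. These did not overlap, at 0.28 ± 0.074 (adjusted p = 0.00912), but the call was lost with library totals and without aged msn2∆ replicate 3 (adjusted p = 0.0638). That replicate carried many of the calls: without it 12 genes were lower and ATP5 was not called, and 8 of the 21 calls held in all 18 fits that left out 1 library.

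Differences of the age effect between strains were tested as interactions. Between msn2∆ and wild type, 3 of the 38 had a higher age effect in msn2∆ (background 7.54%) and 0 a lower one (background 7.23%), with 2 lower at an unadjusted p under 0.05 and 2 by DESeq2. Between msn2∆msn4∆ and wild type, 1 was higher (background 7.17%) and 5 were lower (background 8.99%). Between msn2∆msn4∆ and msn2∆, 4 were lower (background 4.46%) and 0 were higher (background 1.71%, or 6.18% in either direction), with 1 higher at an unadjusted p under 0.05 and 0 by DESeq2. Of the 13 interaction calls, 4 held in every fit that left out 1 library. On thinning to the smallest total ATP1 and ATP14 in msn2∆msn4∆ against wild type were the calls that remained, and both calls of COX26 and that of CYT1 between the deletions were lost (adjusted p = 0.248, 0.132 and 0.0898). For msn2∆ against wild type 1 call was left without young wild-type replicate 3, young msn2∆ replicate 1, or replicate 1 or 2 of aged wild type or aged msn2∆. For msn2∆msn4∆ against wild type 2 were left without aged wild-type replicate 2 or aged msn2∆msn4∆ replicate 3, and 3 without young wild-type replicate 3, aged wild-type replicate 3, or replicate 1 of young or aged msn2∆msn4∆. For msn2∆msn4∆ against msn2∆ 2 were left without young msn2∆ replicate 2 or aged msn2∆msn4∆ replicate 1. COX26 rose more in msn2∆ than in wild type, by 1.03 ± 0.227 (adjusted p = 0.00507), and less in msn2∆msn4∆ than in msn2∆, by -1.82 ± 0.32 (adjusted p = 0.00104). ATP1 had a lower age effect in msn2∆msn4∆ than in wild type, by -0.56 ± 0.104 (adjusted p = 0.000965), and CYT1 a lower one in msn2∆msn4∆ than in msn2∆, by -0.51 ± 0.103 (adjusted p = 0.00382).

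The deletion effects of the genes with and without AGGGG upstream were set side by side. The median log2 fold change in aged msn2∆msn4∆ against wild type was -0.63 over the 16 genes with the motif and -0.53 over the 22 without it, with 14 and 20 called lower. In young msn2∆msn4∆ it was -0.43 with and -0.46 without, in aged msn2∆ -0.30 in both, and in young msn2∆ -0.46 with and -0.33 without. In aged msn2∆msn4∆ against aged msn2∆ it was -0.46 with and -0.25 without, with 10 of 16 and 10 of 22 called lower. RIP1 and QCR7, with no AGGGG in the window, were lower in every deletion comparison against wild type, as COX26, with 2 matches, was. NDE2, the other gene with 2 matches, was called in none of those comparisons. For the age effect in wild type the medians were 0.52 with and 0.06 without AGGGG. They were 0.44 with and 0.15 without in msn2∆, and 0.33 with and -0.17 without in msn2∆msn4∆. These medians are descriptions with no test of the difference.

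Other genes of the pathway were taken as lists. Isoforms and regulators of the same complexes outside the 38 numbered 10. Of these, 5 were lower in aged msn2∆msn4∆ (background 19.7%) and 5 in young msn2∆msn4∆ (background 19.9%) against wild type. CYC7, the cytochrome c isoform induced by low oxygen and stress, had 16.0, 17.4 and 15.9 CPM in aged msn2∆msn4∆ and 67.7, 64.7 and 86.3 CPM in aged msn2∆, against 117, 124 and 106 CPM in aged wild type. Its log2 fold changes were -2.82 ± 0.157 and -0.67 ± 0.126 in aged and -2.33 ± 0.144 and -1.50 ± 0.137 in young msn2∆msn4∆ and msn2∆, unlike those of CYC1 given above, although the pair are 78.1% identical in coding sequence with an identical run of at most 35 bp. COX5B, the low-oxygen isoform that replaces COX5A, was lower by -1.58 ± 0.119 in aged and -1.84 ± 0.119 in young msn2∆msn4∆. INH1, the inhibitor of ATP synthase in reverse, was lower by -1.48 ± 0.118 in aged and -1.64 ± 0.112 in young msn2∆msn4∆.

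The Hap activators did not share one pattern. HAP4, the limiting subunit of the Hap complex, had 55.5, 62.9 and 45.6 CPM in aged msn2∆msn4∆ and 78.4, 78.0 and 98.6 CPM in aged msn2∆, against 93.3, 100 and 93.4 CPM in aged wild type. It was lower in aged msn2∆msn4∆ than in aged wild type by -0.82 ± 0.118 (adjusted p = 1.8e-05) and was not called in aged msn2∆, young msn2∆ or young msn2∆msn4∆ (-0.17, -0.20 and -0.22). HAP1 rose with age in wild type, msn2∆ and msn2∆msn4∆, by 0.32, 0.70 and 0.54. ROX1, the hypoxic repressor, was lower in aged than in young wild type by TMM scaling (-0.35 ± 0.125, less than the 0.51 by which library totals moved the median of all features) and higher in aged than in young msn2∆ and msn2∆msn4∆ (0.53 ± 0.125 and 0.71 ± 0.136).

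Of 12 carriers of the mitochondrial membranes, 10 were higher in aged than in young wild type, 10 in msn2∆ and 11 in msn2∆msn4∆. They were led in wild type by PIC2, a phosphate carrier (2.07), the porin POR1 (0.94) and the oxaloacetate carrier OAC1 (0.93). Over all features 33.3%, 36.6% and 31.2% were called higher in wild type, msn2∆ and msn2∆msn4∆, and 30.6% lower in wild type. Of 8 heme synthesis genes 5 were higher in aged wild type, led by HEM12 (0.50), and of 11 ubiquinone synthesis genes 7 were higher and 3 lower by TMM scaling. Of 59 assembly and translation factors 12 were higher and 22 lower in aged wild type by TMM scaling, and 3 higher and 29 lower in aged msn2∆msn4∆ against wild type (background 16.6% and 19.7%). Of the 7 mitochondrially encoded subunits, whose RNA polyA selection captures poorly, 2 were lower in aged wild type by TMM scaling. In young msn2∆ against wild type 5 were higher (background 15%), and in aged msn2∆msn4∆ against wild type 1 was lower (background 19.7%).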

How the data were processed

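RNA from 18 libraries (NEB Ultra II Directional kit, 2 × 150 bp reads) was processed by the authors with STAR 2.7.6a, cutadapt 2.6 and Subread 1.6.2 (featureCounts) on R64, per the submitters' processing notes; counting options are not given in the sources used here. The deposited table holds expected counts, since 54.6% of its values above 0 are not whole, and library totals differ. They were rounded, and edgeR 4.0.16 (R 4.3.3) was fitted to all 18 libraries with TMM factors. Of 7118 features, 6833 passed filterByExpr (285 did not). Quasi-likelihood p-values were Benjamini-Hochberg adjusted over all 6833, and called means an adjusted p under 0.05. The common biological coefficient of variation was 0.0922 with 12 residual degrees of freedom. Levels are CPM with TMM factors, and their precision is limited by 3 libraries per group. The fit was tested on simulated data.

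The 38 genes and all lists were chosen with earlier results of these data known. In each complex the called genes with the largest changes are named, with NDI1, NDE1, NDE2, SDH2, RIP1, CYC1, COX5A and ATP1 throughout, MSN2, MSN4, HAP4, HAP1, ROX1, CYC7, COX5B and INH1 outside the complexes, and up to 3 genes per other list. Alternatives were DESeq2 1.42.0, RLE factors, library totals, other filters, rounding down, a replicate block, fits to the compared groups only and leaving out each library. Thinning to the smallest total, a block within wild type and the split by coding length were chosen after the data were seen. Upstream bases, coding lengths and coding identities came from the R64 genome and its annotation (Python 3.11.15, Biopython 1.88), with 6040 features matched to locus tags; figures were drawn with matplotlib 3.10.9.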

Additional observations from a re-analysis of the deposited data

Results flagged for a closer look

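Interactions between age and genotype were called for 13 effects, each with an adjusted p under 0.05 in edgeR's test of the difference itself. Of the 38 genes, 3 were called in msn2∆ minus wild type, against 14.8% of all features. In msn2∆msn4∆ the counts were 6 minus wild type, against 16.2%, and 4 minus msn2∆, against 6.18%. The share of the 38 was above that of all features in the last alone. In msn2∆ minus wild type the genes called were COX26 (1.03 ± 0.227, SE, adjusted p = 0.00507), NDE1 (0.41 ± 0.131, adjusted p = 0.0384) and ATP7 (0.38 ± 0.121, adjusted p = 0.0393). The age effects behind them were 3.11 in msn2∆ and 2.08 in wild type for COX26, 0.68 and 0.27 for NDE1, and 0.54 and 0.16 for ATP7. In msn2∆msn4∆ minus wild type, ATP1 (-0.56), ATP4 (-0.40), QCR2 (-0.38), CYT1 (-0.36) and NDI1 (-0.31) had a lower age effect and ATP14 a higher one (0.54), with adjusted p of 0.000965, 0.0317, 0.025, 0.0206, 0.0441 and 0.0323. In msn2∆msn4∆ minus msn2∆, COX26 (-1.82), SDH2 (-0.78), SDH1 (-0.63) and CYT1 (-0.51) had a lower age effect, with adjusted p of 0.00104, 0.0176, 0.0446 and 0.00382. The age effects behind these were 1.29 in msn2∆msn4∆ and 3.11 in msn2∆ for COX26, 1.06 and 1.84 for SDH2, 0.33 and 0.96 for SDH1, and -0.20 and 0.31 for CYT1. The CYT1 effect in msn2∆msn4∆ was 0.23 with library totals. Both COX26 differences, that of ATP1, and that of CYT1 between the deletions held in all 18 fits that left out 1 library. On thinning to the smallest total ATP1 and ATP14 kept their calls (adjusted p = 0.00162 and 0.0116) and all the rest were lost. Those lost included both COX26 calls and that of CYT1 between the deletions (adjusted p = 0.248, 0.132 and 0.0898). The other 9 calls, ATP14 among them, were lost in 2 to 14 of the fits that left out 1 library, with adjusted p of up to 0.162.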

How the results depend on the processing

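Under library totals 28 age effects that were called there or with TMM factors changed sign. In wild type they became 0.08 for QCR7, 0.50 for QCR8, 0.15 for QCR10, 0.19 for COX6, 0.39 for ATP4, 0.33 for ATP14, 0.09 for ATP15, 0.26 for ATP17, 0.15 for ATP18 and 0.04 for ATP20. In msn2∆ they became 0.19 for QCR7, 0.47 for QCR8, 0.38 for QCR9, 0.40 for QCR10, 0.04 for CYC1, 0.27 for COX6, 0.25 for COX8, 0.10 for COX9, 0.14 for COX12, 0.22 for ATP4, 0.49 for ATP15, 0.06 for ATP17 and 0.20 for ATP18. In msn2∆msn4∆ they became 0.38 for RIP1, 0.23 for CYT1, 0.04 for COX6, 0.29 for ATP1 and 0.33 for ATP18. The aged over young ratios of summed levels of NADH dehydrogenases, Complexes II and III, CYC1, Complex IV and ATP synthase were then 1.65, 1.97, 1.07, 0.834, 1.01 and 1.24 in msn2∆msn4∆, 2.33, 2.61, 1.45, 1.03, 1.31 and 1.42 in msn2∆, and 1.87, 2.16, 1.3, 0.866, 1.21 and 1.48 in wild type. With RLE factors the ratio was 0.92 for ATP synthase in msn2∆ and 1.5 for Complex II in wild type. Nothing but the scaling was changed in these settings, and no outside standard was used here to choose between them.

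Library totals gave 9 calls for the interaction of msn2∆msn4∆ minus msn2∆. DESeq2 called 2 genes between the young deletions and 6 for the interaction of msn2∆ minus wild type. Thinning to the smallest total gave 1, 2 and 0 interaction calls (msn2∆ minus wild type, msn2∆msn4∆ minus wild type and msn2∆msn4∆ minus msn2∆); the first was ATP14, not called at full depth. On the forward strand alone, 21.1% of the 38 genes held AGGGG.

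Leaving out 1 library gave 17 to 28 calls for age in wild type, 24 to 31 in msn2∆ and 23 to 31 in msn2∆msn4∆. It gave 22 to 26 for young msn2∆ and 26 to 30 for young msn2∆msn4∆ against wild type, 0 to 1 between the young deletions, 17 to 23 for aged msn2∆ and 32 to 34 for aged msn2∆msn4∆ against wild type, and 12 to 22 between the aged deletions. The interactions had 1 to 4, 2 to 7 and 2 to 5 calls, in the order given for thinning. No alternative other than library totals turned the sign of a called log2 fold change among 456.

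Replicate numbers were not taken to pair the libraries. In 0 of 15 pairs of groups were all 3 correlations over 0.1, and in 0 of 15 did every library correlate best with its own number. This rule cannot exclude a weaker pairing. Aged and young wild type had correlations of 0.105, 0.29 and 0.0861, with 4 of 6 libraries best with their own number. With the replicate block 25, 29 and 31 genes were called for age in wild type, msn2∆ and msn2∆msn4∆, 6 calls were lost in all comparisons and 1 was gained. A block within the 6 wild-type libraries gave 30 calls for age.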
